A study of Saccharomyces cerevisiae with 28 samples.

Results

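The heat shock chaperones described here are 10 genes of budding yeast (Saccharomyces cerevisiae): the 4 cytosolic Hsp70 genes SSA1, SSA2, SSA3 and SSA4, the small heat shock genes HSP12, HSP26 and HSP42, the Hsp90 genes HSP82 and HSC82, and the disaggregase gene HSP104. They were taken by their standard names, 10 of the 6692 open reading frames (ORFs) measured, and all 10 passed the filter on low values. The set was chosen by measured values, namely the counts and RPKM of SSA3, which was higher in most comparisons of the histone mutant H3H113N with its parent strain. The H3H113N comparisons are therefore given as a description. Where the text says which of them passed a threshold, this describes the fit and is no independent test, and such tests are confined to comparisons that the choice did not use.

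The study sequenced poly(A)+ RNA from 28 libraries in 14 groups to ask how cells that carry H3H113N, a histidine-to-asparagine change in histone H3, handle copper. All strains were BY4741, a haploid MATa laboratory strain of the S288C lineage. They were H3H113N cells against wild type (WT), H3H113N-dCtr1 against dCtr1, which lacks the plasma membrane copper transporter gene CTR1, and H3H113N-dCcs1 against dCcs1, which lacks CCS1, the gene of the copper chaperone of superoxide dismutase. H3H113N and WT cells were grown in rich glucose medium (YPD), in rich ethanol and glycerol medium that requires respiration (YPEG), and in synthetic complete medium (SC). The dCtr1 pair was grown in YPD. The dCcs1 pair was grown in SC, in SC without lysine (SC-lys), and in SC-lys with 75 µM CuSO4. YPD and YPEG cultures were started at an optical density of 0.2 and grown for 3 to 4 doublings, SC cultures were started at 0.05 and grown for 5 doublings, and SC-lys cultures were started at 0.4 and kept for 24 h. Per the labels, growth in SC-lys was very slow for both strains, and growth with added copper was exponential in dCcs1 and very slow in H3H113N-dCcs1. Strains compared often spent different times in culture. There were 3 libraries of H3H113N and 3 of WT in SC, 1 of each strain with added copper, and 2 in each of the other 10 groups. The labels do not say that replicates came from separate cultures, so p-values measure the spread between these libraries, which may be technical. In RNA from whole cultures, fewer cells that express a gene and less RNA of it per cell cannot be told apart.

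Heat shock chaperones keep other proteins soluble and folded. Hsp70 binds exposed stretches of unfolded proteins in cycles of ATP hydrolysis, Hsp90 finishes the folding of kinases, receptors and other clients, small heat shock proteins hold aggregating proteins in reach of refolding, and Hsp104 pulls proteins out of aggregates. In yeast, the heat shock factor Hsf1 drives most of these genes from heat shock elements (HSEs), arrays of GAA and its reverse complement TTC. The general stress factors Msn2 and Msn4 drive an overlapping set from stress response elements (STREs). SSA1 and SSA2 are expressed in unstressed growth and SSA3 and SSA4 are induced by stress, and likewise HSC82 is the constitutive and HSP82 the inducible Hsp90 gene. SSA3 is also known to be induced when glucose runs out, through post-diauxic shift (PDS) elements read by Gis1.

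The regions upstream of the start codons are shown first, and whether these elements relate to the differences given below was not tested. In the 500 bases before each start codon of the R64 genome, both strands were searched for an HSE of 3 units (alternating GAA and TTC with NN between units), an HSE of 2 units (GAANNTTC or TTCNNGAA, which also counts the units inside a longer HSE), a STRE (AGGGG or CCCCT) and a PDS element (TTAGGGAT, TAAGGGAT, ATCCCTAA or ATCCCTTA). The PDS element was added after the SSA3 sequence had been read. An HSE of 3 units lay in 1.49% of 5986 such windows and in 4 members, SSA1, SSA2, HSP42 and HSP104. An HSE of 2 units lay in 35.2% of windows and in 8 members, and a STRE lay in 34.1% of windows and in 7 members. A PDS element lay in 2.59% of windows and, among the members, upstream of SSA3, which held 2 of them and no match to the other patterns. A missing match says only that these letters are not in the window, and imperfect HSEs are known to work. In the stretches below, written 5′ to 3′ on the strand of the gene, capitals mark the letters of any of these motifs. The stretches are parts of the windows. Over the whole window SSA4 and HSP26 each held 3 STREs and 1 HSE of 2 units, and SSA1 held 2 STREs.
SSA3, chrII:86559-86708, minus strand, 260 to 111 bases before the start codon, with 2 PDS elements: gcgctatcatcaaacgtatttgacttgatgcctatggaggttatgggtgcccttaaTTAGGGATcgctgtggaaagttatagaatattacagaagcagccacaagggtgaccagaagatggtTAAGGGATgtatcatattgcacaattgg
SSA4, chrV:364329-364418, plus strand, 260 to 171 bases before the start codon, with an HSE of 2 units and a STRE: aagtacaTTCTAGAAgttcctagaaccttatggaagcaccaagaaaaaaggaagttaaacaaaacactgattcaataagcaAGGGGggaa
HSP26, chrII:381670-381713, plus strand, 360 to 317 bases before the start codon, with an HSE of 2 units and a STRE: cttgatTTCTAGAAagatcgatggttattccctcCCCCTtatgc
HSP12, chrVI:106816-106885, plus strand, 440 to 371 bases before the start codon and inside the neighbouring ORF YFL015C, with 3 of its 5 STREs: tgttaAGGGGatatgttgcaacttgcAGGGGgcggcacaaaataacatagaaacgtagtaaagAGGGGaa
HSP42, chrIV:806371-806448, plus strand, 250 to 173 bases before the start codon, with HSE units and 3 STREs: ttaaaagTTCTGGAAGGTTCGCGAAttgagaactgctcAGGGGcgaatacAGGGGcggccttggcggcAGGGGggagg
HSP104, chrXII:88313-88462, plus strand, 310 to 161 bases before the start codon, with HSE units and 3 STREs: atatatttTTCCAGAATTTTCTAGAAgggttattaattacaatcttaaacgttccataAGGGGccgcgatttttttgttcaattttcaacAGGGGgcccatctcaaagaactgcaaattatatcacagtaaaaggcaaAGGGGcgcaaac
SSA1, chrI:141672-141801, minus strand, 370 to 241 bases before the start codon, with HSE units: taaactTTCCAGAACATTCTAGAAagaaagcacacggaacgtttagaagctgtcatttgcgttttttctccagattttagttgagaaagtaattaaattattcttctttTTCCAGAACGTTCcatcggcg

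The coding sequences decide how well reads of 50 nt can separate the paralogs. SSA1 (YAL005C, chrI:139503-141431) and SSA2 (YLL024C, chrXII:95566-97485) were identical at 96.8% of aligned bases. Only 42.1% of the 50-nt windows of SSA1 and 41.8% of those of SSA2 were unique in the genome, so the split of reads between them is uncertain. SSA3 (YBL075C, chrII:84499-86448) and SSA4 (YER103W, chrV:364589-366517) were identical at 77.5% of bases, and all their windows were unique. HSP82 (YPL240C, chrXVI:96496-98625) and HSC82 (YMR186W, chrXIII:632355-634472) were identical at 92.4%, and 93.6% of the windows of each were unique. HSP12 (YFL014W, chrVI:107256-107585), HSP26 (YBR072W, chrII:382030-382674), HSP42 (YDR171W, chrIV:806621-807748) and HSP104 (YLL026W, chrXII:88623-91349) shared no window with another locus. Each of the 10 genes has 1 exon and overlaps no other annotated ORF. The first 60 bases of the 4 SSA ORFs show the difference, with capitals where a base differs from SSA1.
SSA3, chrII:86389-86448, minus strand, 10 differences: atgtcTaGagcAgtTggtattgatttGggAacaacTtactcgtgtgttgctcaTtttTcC
SSA4, chrV:364589-364648, plus strand, 6 differences: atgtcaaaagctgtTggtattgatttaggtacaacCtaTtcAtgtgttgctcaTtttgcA
SSA2, chrXII:97426-97485, minus strand, 6 differences: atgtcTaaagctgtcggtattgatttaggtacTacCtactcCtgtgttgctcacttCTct
SSA1, chrI:141372-141431, minus strand: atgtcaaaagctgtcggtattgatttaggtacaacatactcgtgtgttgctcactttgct

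Total counts per library ran from 1168159 to 6738018. The kits split the media, with 14 libraries of the KAPA kit (YPD and all SC-lys cultures) and 14 of the Illumina TruSeq kit (YPEG and SC). Levels of YPD or SC-lys against YPEG or SC therefore cannot be told apart from the kit. In the dCtr1 groups the highest CTR1 count was 1, and in the dCcs1 groups the highest CCS1 count was 1. Markers of MATa cells were detected in every library, with a summed level of 208 to 2322 RPKM (reads per kilobase of ORF, scaled to the counted reads of the library) in H3H113N libraries and 298 to 2043 RPKM in the others. The summed level of 4 MATalpha markers was 52.8 to 111 RPKM in H3H113N libraries and 23.9 to 62.3 RPKM in the others, with none of the 4 at 0 throughout, and that of 5 meiotic markers was 33.2 to 74.0 RPKM in H3H113N libraries and 20.2 to 55.9 RPKM in the others. Their part in the results was not tested. Whole chromosomes were shifted in the H3H113N libraries, among them chromosome II, which carries SSA3 and HSP26, chromosome V, which carries SSA4, and, in the dCcs1 background, chromosome I, which carries SSA1.

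SSA3 was higher in every H3H113N library than in any library with wild-type H3. Over all media it ran from 41.5 to 588 RPKM with a median of 124 RPKM in the 14 H3H113N libraries, and from 16.5 to 38.8 RPKM with a median of 24.0 RPKM in the 14 others. It was the only member whose ranges did not overlap, as was so for 20 of 6592 tested ORFs (0.303%). These RPKM were not centred by chromosome. Chromosome II was shifted by 0.140 (log2) in the lowest H3H113N library, YPD replicate 1. In the highest others, dCcs1 replicate 2 in SC and in SC-lys, it was shifted by -0.224 and -0.275. Whether the separation remains after centring was not tested. The counts behind these levels were 80 to 7733 reads per library.

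In YPD, SSA3 had 41.5 and 64.01 RPKM in H3H113N cells, against 19.0 and 18.5 RPKM in WT cells. In YPD without CTR1 it had 66.0 and 76.8 RPKM in H3H113N-dCtr1, against 22.7 and 16.5 RPKM in dCtr1. In YPEG it had 285 and 161 RPKM in H3H113N cells, against 32.6 and 23.2 RPKM in WT cells. None of the 3 pairs overlapped. Both H3H113N libraries in YPEG lay above every H3H113N library in YPD, which cannot be told apart from the kit. In SC it had 82.4, 110 and 137 RPKM in H3H113N cells, against 22.0, 28.9 and 34.5 RPKM in WT cells. In SC without CCS1 it had 76.7 and 222 RPKM in H3H113N-dCcs1, against 24.8 and 38.8 RPKM in dCcs1. In SC-lys it had 588 and 284 RPKM in H3H113N-dCcs1, against 35.6 and 38.4 RPKM in dCcs1. H3H113N-dCcs1 in SC-lys had the highest mean of any group, and the H3H113N-dCcs1 pair in SC had a 2.89-fold spread, the widest of SSA3 in any group. With added copper the single libraries had 230 RPKM in H3H113N-dCcs1 and 21.6 RPKM in dCcs1.

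**Figure D1:**
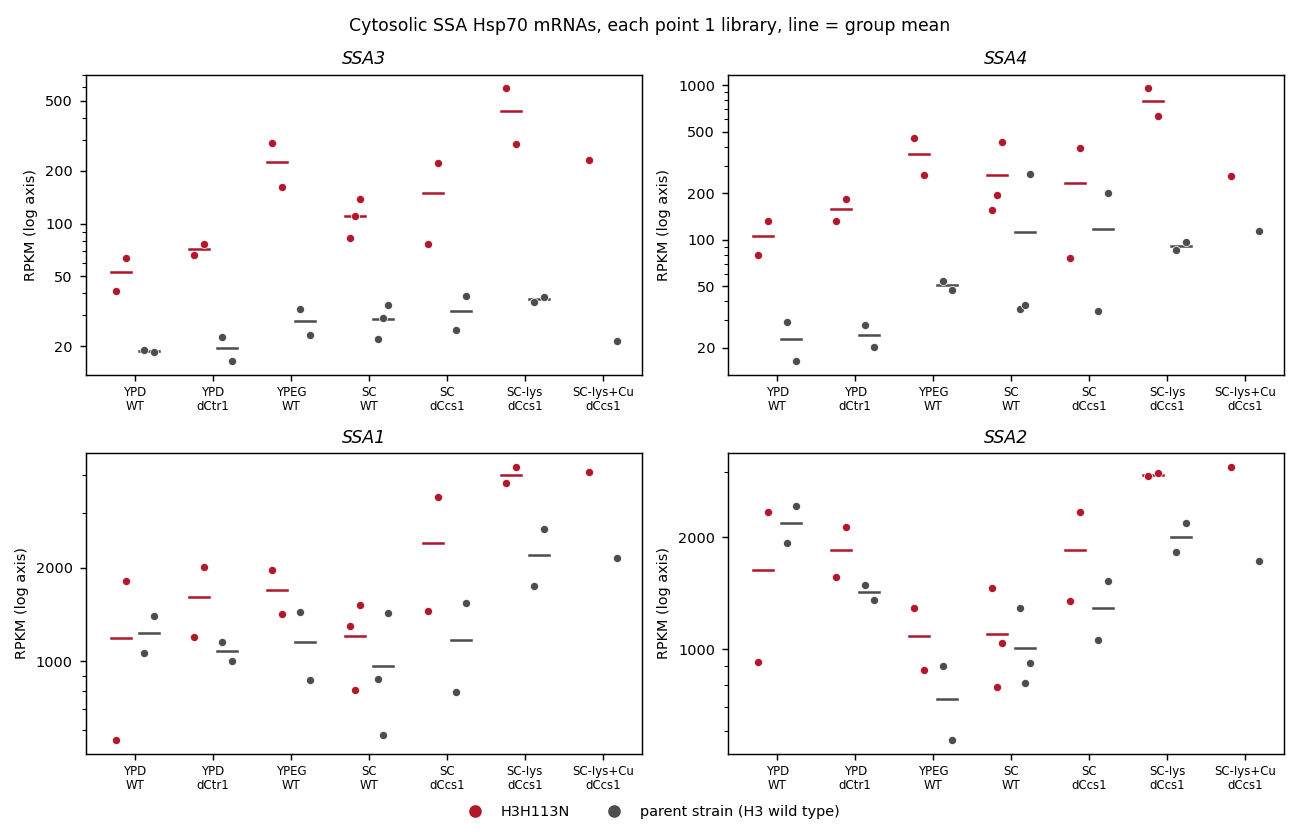
RPKM of the 4 SSA genes on log axes, with 1 point per library and a line at the group mean; each medium and strain background has H3H113N libraries in red on the left and libraries with wild-type H3 in grey on the right. SSA3 separates in all 7 pairs, with 41.5 to 588 RPKM in red and 16.5 to 38.8 RPKM in grey, while SSA1 and SSA2 overlap in 4 of the 6 replicated pairs.

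Ordered by group mean, the 7 H3H113N groups came first for SSA3 and the 7 others last. H3H113N-dCcs1 in SC-lys averaged 436 ± 215 RPKM (SD, n = 2), H3H113N in YPEG 223 ± 87.9 RPKM, H3H113N-dCcs1 in SC 149 ± 102 RPKM, H3H113N in SC 110 ± 27.4 RPKM (SD, n = 3), H3H113N-dCtr1 in YPD 71.4 ± 7.66 RPKM and H3H113N in YPD 52.8 ± 15.9 RPKM (SD, n = 2). The H3 wild-type groups with replicates averaged 18.7 to 37.0 RPKM. Of the 13 pairs of neighbours in this order, 5 did not overlap, among them H3H113N in YPD and the next group, dCcs1 in SC-lys. The order crosses kits, which cannot be told apart from the media.

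As fold changes fitted by edgeR over all 6592 ORFs, SSA3 stood at 2.99 (SE 0.444) on the log2 scale in YPEG and 3.26 (SE 0.446) in SC-lys. It stood at 1.73 (SE 0.352) in SC, 1.97 (SE 0.430) in dCcs1 in SC, 1.68 (SE 0.424) in dCtr1 in YPD and 1.28 (SE 0.421) in YPD. SSA3 was past an adjusted p of 0.05 in 5 of these 6 comparisons, and no other member was past it in any. The share of all tested ORFs past that threshold was 1.03% in YPEG, 10.7% in SC-lys, 1.59% in SC, 1.24% in dCcs1 in SC, 2.18% in dCtr1 in YPD and 1.24% in YPD. These calls were part of how the set was chosen, and nothing is read from them. Beside the count of 0 members in YPD, edgeR gave 4 at an unadjusted p under 0.05, DESeq2 called 2 and limma called 0. Without 1 library the SSA3 value ranged from 2.46 to 3.38 in YPEG, 2.61 to 3.70 in SC-lys, 1.53 to 1.89 in SC, 1.20 to 2.48 in dCcs1 in SC, 1.54 to 1.82 in dCtr1 in YPD and 0.94 to 1.56 in YPD. Only in SC-lys did it stay past the threshold whichever library was left out. The call was lost without any 1 library of the dCtr1 pair in YPD, without any in YPEG except H3H113N replicate 2, without any in dCcs1 in SC except H3H113N-dCcs1 replicate 1, and in SC without H3H113N replicate 3, WT replicate 1 or WT replicate 2. Whether the H3H113N difference of SSA3 itself differed between media was not tested.

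Part of each SSA3 difference was shared by the chromosome it lies on. The median log2 difference of the 459 tested ORFs of chromosome II was 0.42 in YPD, 0.30 in YPEG, 0.44 in SC, 0.10 in dCtr1 in YPD, 0.72 in dCcs1 in SC and 0.72 in SC-lys. With each chromosome centred in each library, SSA3 remained higher in H3H113N in all 6 comparisons, by 0.82 in YPD, 2.65 in YPEG, 1.23 in SC, 1.57 in dCtr1 in YPD, 1.25 in dCcs1 in SC and 2.48 in SC-lys. After centring it was past the threshold in YPEG and SC-lys only. HSP26, on the same chromosome, stood at 3.10 before and 2.62 after centring in YPD, and at 1.89 before and 1.12 after centring in SC-lys. Chromosome V was shifted by 0.51 in YPD, 0.50 in YPEG, 0.44 in SC and 0.68 in dCtr1 in YPD, against 0.06 and 0.03 in the dCcs1 background. In SC this shift was present in H3H113N replicates 2 (0.37) and 3 (0.46) and not in replicate 1 (-0.04).

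**Figure D2:**
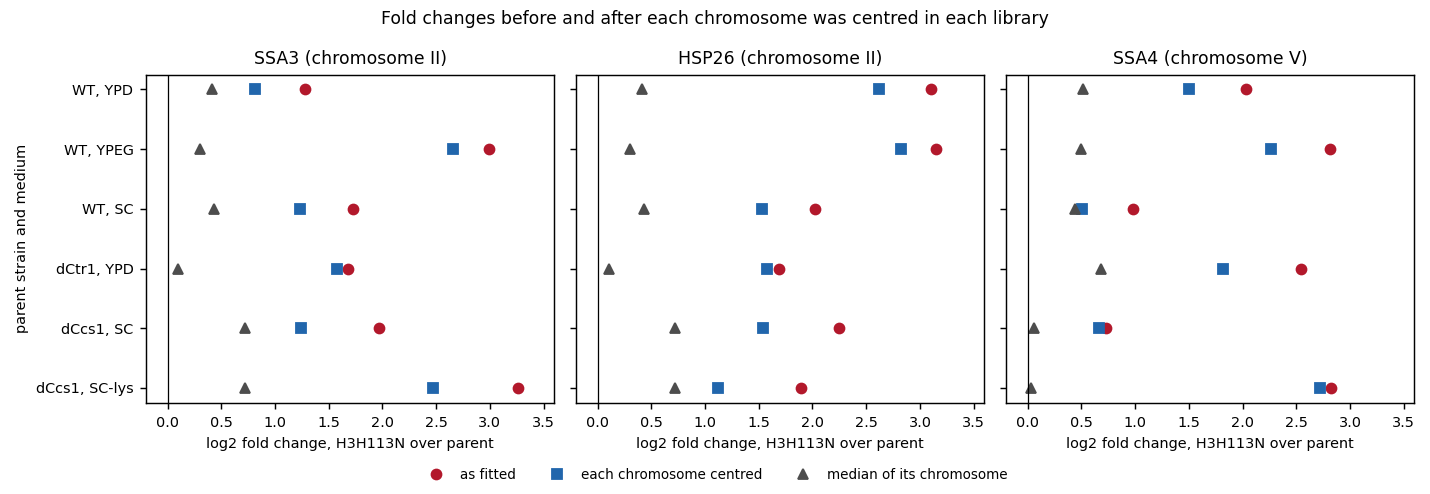
Log2 fold change of H3H113N over its parent strain for SSA3, HSP26 and SSA4 in 6 settings: as fitted (red circles), after each chromosome was centred in each library (blue squares), and the median of all tested ORFs of the gene's chromosome (grey triangles). Every SSA3 value lies above 0 before and after centring, from 1.28 to 3.26 as fitted and from 0.82 to 2.65 when centred.

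SSA4, the other stress-induced Hsp70 gene, was higher in H3H113N libraries without overlap in 4 of the 6 replicated settings. In YPEG it had 454 and 261 RPKM in H3H113N cells, against 54.2 and 47.3 RPKM in WT cells. In SC-lys it had 957 and 633 RPKM in H3H113N-dCcs1, against 85.4 and 96.9 RPKM in dCcs1. In YPD it had 79.3 and 132 RPKM in H3H113N cells, against 29.1 and 16.3 RPKM in WT cells. In these 3 settings the groups did not overlap. In YPD without CTR1 it had 132 and 184 RPKM in H3H113N-dCtr1, against 27.9 and 20.1 RPKM in dCtr1, again without overlap. In SC it had 155, 195 and 430 RPKM in H3H113N cells, against 35.6, 38.0 and 265 RPKM in WT cells. In SC without CCS1 it had 76.1 and 391 RPKM in H3H113N-dCcs1, against 34.8 and 200 RPKM in dCcs1. Both SC comparisons overlapped because WT replicate 3 and dCcs1 replicate 2 each lay above the lowest H3H113N library of its pair. The fitted log2 differences were 2.81 (SE 0.922) in YPEG, 2.82 (SE 0.919) in SC-lys, 2.54 (SE 0.913) in dCtr1 in YPD, 2.03 (SE 0.899) in YPD, 0.98 (SE 0.712) in SC and 0.73 (SE 0.867) in dCcs1 in SC. Without 1 library the SC value as fitted ranged from 0.41, without H3H113N replicate 3, to 2.60, without WT replicate 3. It was 0.56 without WT replicate 1 and 0.57 without WT replicate 2.

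SSA1 and SSA2, which supply most cytosolic Hsp70 in unstressed cells, had smaller fitted differences than SSA3 in all 6 settings, and smaller ones than SSA4 except for SSA1 in dCcs1 in SC. SSA1 ran from 558 to 4231 RPKM with a median of 1669 RPKM in H3H113N libraries and from 578 to 2661 RPKM with a median of 1278 RPKM in the others. SSA2 ran from 789 to 3094 RPKM with a median of 1513 RPKM in H3H113N libraries and from 569 to 2436 RPKM with a median of 1422 RPKM in the others. Their fitted differences lay between -0.28 and 0.80 for SSA1 and between -0.64 and 0.56 for SSA2. The largest SSA1 value, 0.80 (SE 0.547) in dCcs1 in SC, was 0.04 when each chromosome was centred, and the tested ORFs of chromosome I had a median of 0.75 there. In SC-lys the same median was 0.90 and SSA1 was 0.55 before and -0.31 after centring.

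The median share of the inducible genes in the summed SSA RPKM was larger in H3H113N libraries. How reads shared by SSA1 and SSA2 were counted is not known, so the size of that sum and of these shares is uncertain. SSA3 was 1.47% to 7.15% of the summed RPKM of SSA1 to SSA4 in H3H113N libraries (median 3.25%) and 0.477% to 1.99% in the others (median 0.977%). In YPEG the SSA3 share was 7.13% and 5.92% in H3H113N cells, against 1.34% and 1.53% in WT cells. The lowest H3H113N share, 1.47% in YPD replicate 2, lay below the highest share with wild-type H3, 1.99% in WT in SC replicate 2, so the shares overlapped across media and not within a medium. SSA4 was 2.57% to 13.8% of the sum in H3H113N libraries (median 5.68%) and 0.422% to 9.98% in the others (median 2.09%). SSA4 exceeded SSA3 in all but 2 libraries, H3H113N-dCcs1 in SC replicate 1 and WT in YPD replicate 2. The ratio of SSA4 to SSA3 had a median of 1.83 in H3H113N libraries and 1.64 in the others, with its highest value, 7.67, in WT in SC replicate 3.

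**Figure D3:**
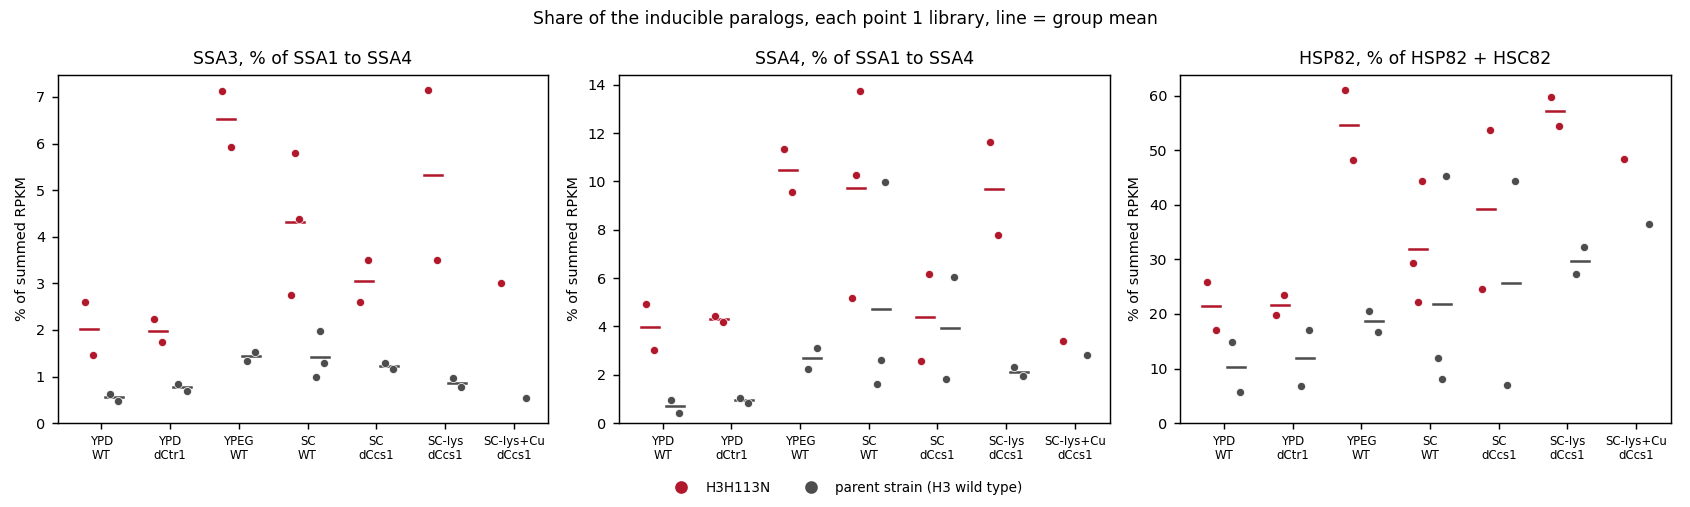
Share of SSA3 and of SSA4 in the summed RPKM of SSA1 to SSA4, and of HSP82 in HSP82 plus HSC82, in % with 1 point per library and a line at the group mean; H3H113N is red on the left of each pair and wild-type H3 grey on the right. The SSA3 share reaches 7.15% in red and 1.99% in grey, and the HSP82 share reaches 61.1% in red and 45.3% in grey.

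Among the small heat shock genes, HSP26, whose product binds unfolding proteins in the cytosol, was higher in H3H113N libraries in each of the 6 replicated settings, with no overlap. In YPEG it had 2089 and 798 RPKM in H3H113N cells, against 289 and 40.7 RPKM in WT cells. In YPD it had 46.4 and 124 RPKM in H3H113N cells, against 7.69 and 9.35 RPKM in WT cells. In SC it had 280, 277 and 404 RPKM in H3H113N cells, against 30.5, 26.2 and 150 RPKM in WT cells. In SC, WT replicate 3 stood above the other two WT libraries and below all 3 H3H113N libraries. In SC without CCS1 it had 247 and 328 RPKM in H3H113N-dCcs1, against 25.3 and 81.5 RPKM in dCcs1. In SC-lys it had 790 and 335 RPKM in H3H113N-dCcs1, against 151 and 94.7 RPKM in dCcs1. In YPD without CTR1 it had 104 and 111 RPKM in H3H113N-dCtr1, against 45.7 and 15.0 RPKM in dCtr1. The dCtr1 replicates differed more from each other than the H3H113N-dCtr1 replicates did. Its fitted log2 differences were 3.15 (SE 0.899) in YPEG, 3.10 (SE 0.953) in YPD, 2.25 (SE 0.892) in dCcs1 in SC, 2.02 (SE 0.724) in SC, 1.89 (SE 0.857) in SC-lys and 1.69 (SE 0.871) in dCtr1 in YPD. With added copper HSP26 had 277 RPKM in H3H113N-dCcs1 and 69.9 RPKM in dCcs1, 1 library each.

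HSP12, which encodes a small membrane-associated stress protein and carries 5 STREs, had its highest levels in YPEG and SC-lys, of either histone allele. Levels in YPEG against YPD, and in SC-lys against SC, cannot be told apart from the kit. In YPD it had 47.1 and 304 RPKM in H3H113N cells, against 26.5 and 4.72 RPKM in WT cells, where the lowest library held 8 reads. In YPEG it had 6697 and 4450 RPKM in H3H113N cells, against 6726 and 5558 RPKM in WT cells. In SC it had 2126, 908 and 1306 RPKM in H3H113N cells, against 355, 196 and 899 RPKM in WT cells. The groups overlapped in YPEG and did not in YPD or SC. In SC without CCS1 it had 1860 and 626 RPKM in H3H113N-dCcs1, against 216 and 117 RPKM in dCcs1. In SC-lys it had 7107 and 7337 RPKM in H3H113N-dCcs1, against 7339 and 3129 RPKM in dCcs1, which overlapped. In YPD without CTR1 it had 488 and 220 RPKM in H3H113N-dCtr1, against 263 and 14.7 RPKM in dCtr1, which overlapped as well. HSP12 had the widest range of the members, with 1556 times as much in the highest as in the lowest library. Its H3H113N differences ranged from -0.15 (SE 0.996) in YPEG to 3.35 (SE 1.15) in YPD on the log2 scale.

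HSP42, the small heat shock gene whose product sorts misfolded proteins into cytosolic deposits, and HSP104 differed widely between replicates, and their ranges in H3H113N libraries and in the others were much alike. HSP42 had 46.2 to 1236 RPKM in H3H113N libraries and 9.94 to 1194 RPKM in the others. In YPEG it had 1236 and 322 RPKM in H3H113N cells, against 134 and 118 RPKM in WT cells, with no overlap. In YPD without CTR1 it had 80.1 and 112 RPKM in H3H113N-dCtr1, against 9.94 and 291 RPKM in dCtr1. HSP104 had 1079 and 625 RPKM in H3H113N cells in YPEG, against 394 and 292 RPKM in WT cells. In SC it had 342, 107 and 575 RPKM in H3H113N cells, against 346, 54.3 and 760 RPKM in WT cells. Its ranges were 103 to 1138 RPKM in H3H113N libraries and 47.8 to 1134 RPKM in the others. The fitted differences were 2.64 (SE 1.66) for HSP42 and 1.31 (SE 1.22) for HSP104 in YPEG, and between -0.96 and 0.30 for both in the other settings.

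**Figure D4:**
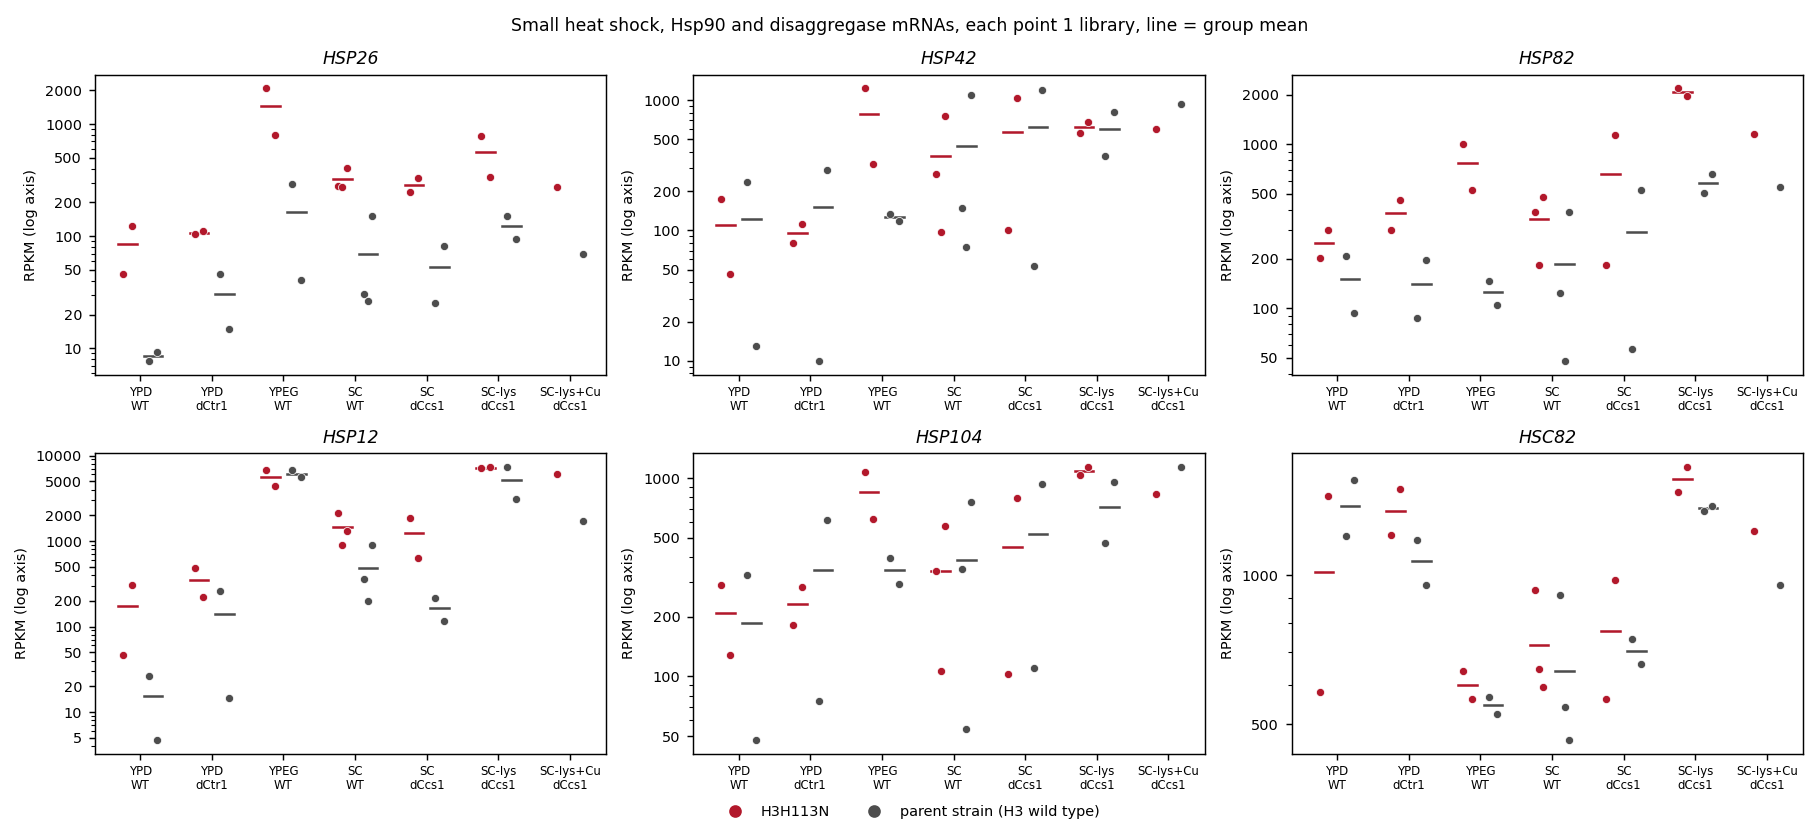
RPKM of HSP26, HSP42, HSP82, HSP12, HSP104 and HSC82 on log axes, with 1 point per library and a line at the group mean; H3H113N libraries are red on the left of each pair and libraries with wild-type H3 grey on the right. HSP26 separates in every replicated pair, whereas HSP42 spans 9.94 to 291 RPKM within the dCtr1 pair in YPD alone.

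The inducible Hsp90 gene HSP82 was higher in H3H113N libraries in YPEG, in SC-lys and in YPD without CTR1. In YPEG it had 1005 and 524 RPKM in H3H113N cells, against 147 and 105 RPKM in WT cells. In SC-lys it had 2198 and 1978 RPKM in H3H113N-dCcs1, against 507 and 659 RPKM in dCcs1. In YPD without CTR1 it had 300.3 and 460 RPKM in H3H113N-dCtr1, against 86.8 and 196 RPKM in dCtr1. None of these pairs overlapped, and the fitted differences were 2.60 (SE 0.977) in YPEG, 1.53 (SE 0.940) in SC-lys and 1.18 (SE 0.933) in dCtr1 in YPD. In SC it had 387, 184 and 475 RPKM in H3H113N cells, against 125, 47.6 and 384 RPKM in WT cells, with WT replicate 3 above H3H113N replicate 2. The constitutive gene HSC82 ran from 561 to 1657 RPKM with a median of 957 RPKM in H3H113N libraries and from 465 to 1561 RPKM with a median of 934 RPKM in the others. Its fitted H3H113N differences lay between -0.67 (SE 0.402) in YPD and 0.15 (SE 0.400) in dCtr1 in YPD. HSP82 made up 61.1% and 48.2% of Hsp90 mRNA in H3H113N cells in YPEG, against 20.6% and 16.7% in WT cells. In SC-lys that share was 59.8% and 54.4% in H3H113N-dCcs1, against 27.3% and 32.3% in dCcs1.

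Counting members whose H3H113N libraries all lay above those of the parent gave 6 in YPEG, 8 in SC-lys, 3 in SC, 3 in dCcs1 in SC, 7 in dCtr1 in YPD and 4 in YPD. The share of all tested ORFs for which this was so was 31.4% in YPEG, 48% in SC-lys, 15.3% in SC, 28.5% in dCcs1 in SC, 38.5% in dCtr1 in YPD and 37.5% in YPD. SSA3 and HSP26 were counted in all 6 settings, and the share of all tested ORFs for which this was so was not computed. Both lie on chromosome II, whose median log2 difference was 0.10 to 0.72 in these settings. The median log2 difference of the 10 members was 1.95 in YPEG, where 9 of 10 were above 0, and between 0.28 and 0.78 in the other settings. The median over all tested ORFs lay between -0.05 and 0.01.

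Replicates of a group differed more for these genes than for most ORFs. The SD within groups on the log2(RPKM + 1) scale was 1.93 for HSP42, larger than for 99.9% of the 6070 ORFs with a mean of at least 10 RPKM, and 1.46 for HSP104. It was 1.22 for HSP12, 1.08 for HSP82, 0.99 for SSA4 and 0.98 for HSP26. SSA1 (0.59), SSA3 (0.47), SSA2 (0.43) and HSC82 (0.39) were nearer the median ORF at 0.35. HSP42 replicates differed by at least 2-fold in 9 of 12 replicated groups, HSP104 in 8 and SSA3 in 2. The widest gaps were 29.3-fold for HSP42 in dCtr1 in YPD and 14-fold for HSP104 in WT in SC.

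Some of the members moved together between replicates and others did not. In all 12 replicated groups the library highest in HSP42 was also highest in HSP104, and the library highest in SSA3 was also highest in SSA4. As a description over 26 libraries that share depth and culture, deviations from the group means had a Pearson correlation of 0.96 between HSP42 and HSP104, 0.90 between HSP82 and HSP104, 0.77 between SSA3 and SSA4, and 0.06 between SSA3 and HSP12. Pairs with HSP12 or HSC82 included negative values, among them -0.22 between HSP12 and HSP42 and -0.25 between HSP42 and HSC82. In SC, WT replicate 3 and dCcs1 replicate 2 were high in this way: HSP42 had 1101 RPKM in WT replicate 3, against 149 and 74.3 RPKM in replicates 1 and 2. SSA3 in those libraries, 34.5 and 38.8 RPKM, was still below every H3H113N library.

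The deletions of copper genes gave comparisons that the choice of members did not use, and in none of them did a member pass the adjusted threshold. In dCtr1 against WT in YPD, 0 of 10 members and 0.0455% of all tested ORFs passed in edgeR's quasi-likelihood test, and 1 member, HSP12, had an unadjusted p under 0.05. HSP12 had 263 and 14.7 RPKM in dCtr1 against 26.5 and 4.72 RPKM in WT, a log2 difference of 3.05 (SE 1.14, edgeR adjusted p = 1) with overlapping libraries. SSA3 stood at -0.01 (SE 0.418) in that comparison. DESeq2 and limma also called 0 members there. In dCcs1 against WT in SC, 0 members and 0.0152% of tested ORFs passed, none with an unadjusted p under 0.05, and DESeq2 and limma called 0. SSA3 stood at 0.19 (SE 0.386) with 24.8 and 38.8 RPKM in dCcs1, against 22.0, 28.9 and 34.5 RPKM in WT cells. SSA3 libraries overlapped in both comparisons.

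Within the H3H113N background the deletions did not move a member past the threshold either. In H3H113N-dCtr1 against H3H113N in YPD, 0 members and 0.485% of tested ORFs passed in edgeR, with 0 members at an unadjusted p under 0.05 and 0 called by DESeq2 or limma. SSA3 stood at 0.39 (SE 0.411) with 66.0 and 76.8 RPKM in H3H113N-dCtr1, against 41.5 and 64.01 RPKM in H3H113N, which did not overlap. SSA3 and HSP82 were the 2 members with all H3H113N-dCtr1 libraries above, as was so for 23.6% of all tested ORFs. The chromosome II median was -0.34 there, and SSA3 was 0.73 with each chromosome centred. In H3H113N-dCcs1 against H3H113N in SC, 0 members and 0.0758% of tested ORFs passed in edgeR, with 0 at an unadjusted p under 0.05 and 0 called by DESeq2 or limma. SSA1 had the largest value there, 0.97 (SE 0.490, edgeR adjusted p = 0.999), and was 0.18 with each chromosome centred.

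Respiratory medium was compared with SC because both used the TruSeq kit, although starting density and the number of doublings differed. In WT cells HSP12 rose in YPEG, to 6726 and 5558 RPKM, against 355, 196 and 899 RPKM in SC, a log2 difference of 3.46 (SE 0.940, edgeR adjusted p = 0.0227). It was the 1 member of 10 to pass, beside 11.5% of all tested ORFs (6.75% higher and 4.72% lower). DESeq2 and limma called it too, with adjusted p values of 0.00116 and 0.0136. Leaving out any 1 of the WT libraries other than SC replicate 3 took the adjusted p past the threshold, to between 0.0659 and 0.0900, at log2 differences of 3.08 to 3.54. Over all alternatives the adjusted p lay between 0.00116 and 0.0900. SSA3 had 32.6 and 23.2 RPKM in YPEG against 22.0, 28.9 and 34.5 RPKM in SC, a difference of -0.22 (SE 0.388, edgeR adjusted p = 0.783). HSP42 was at -2.01 (SE 1.54, edgeR adjusted p = 0.446) and SSA4 at -1.35 (SE 0.828, edgeR adjusted p = 0.334), and WT in SC replicate 3 was the highest library for both. Of the 10 members 1, HSP12, had YPEG libraries all above those in SC, as did 24.5% of tested ORFs.

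In H3H113N cells the same media gave 0 members past the threshold in edgeR, beside 10.9% of tested ORFs (6.13% higher and 4.79% lower). At an unadjusted p under 0.05 there were 3 members, DESeq2 called 2, SSA3 and HSP26, and limma called 0. SSA3 had 285 and 161 RPKM in YPEG against 82.4, 110 and 137 RPKM in SC, a log2 difference of 1.05 (SE 0.370, edgeR adjusted p = 0.074). HSP26 had 2089 and 798 RPKM in YPEG against 280, 277 and 404 RPKM in SC, a difference of 2.19 (SE 0.755, edgeR adjusted p = 0.068). HSP12 stood at 1.91 (SE 0.903, edgeR adjusted p = 0.174). In 5 members all YPEG libraries lay above those in SC, namely SSA3, HSP12, HSP26, HSP82 and HSP104 (23.3% of tested ORFs). With each chromosome centred, SSA3 was 1.16 with an edgeR adjusted p of 0.0488. Whether the effect of the medium differed between H3H113N and WT cells was not tested, and this comparison shares its libraries with those of H3H113N against WT above.

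**Figure D5:**
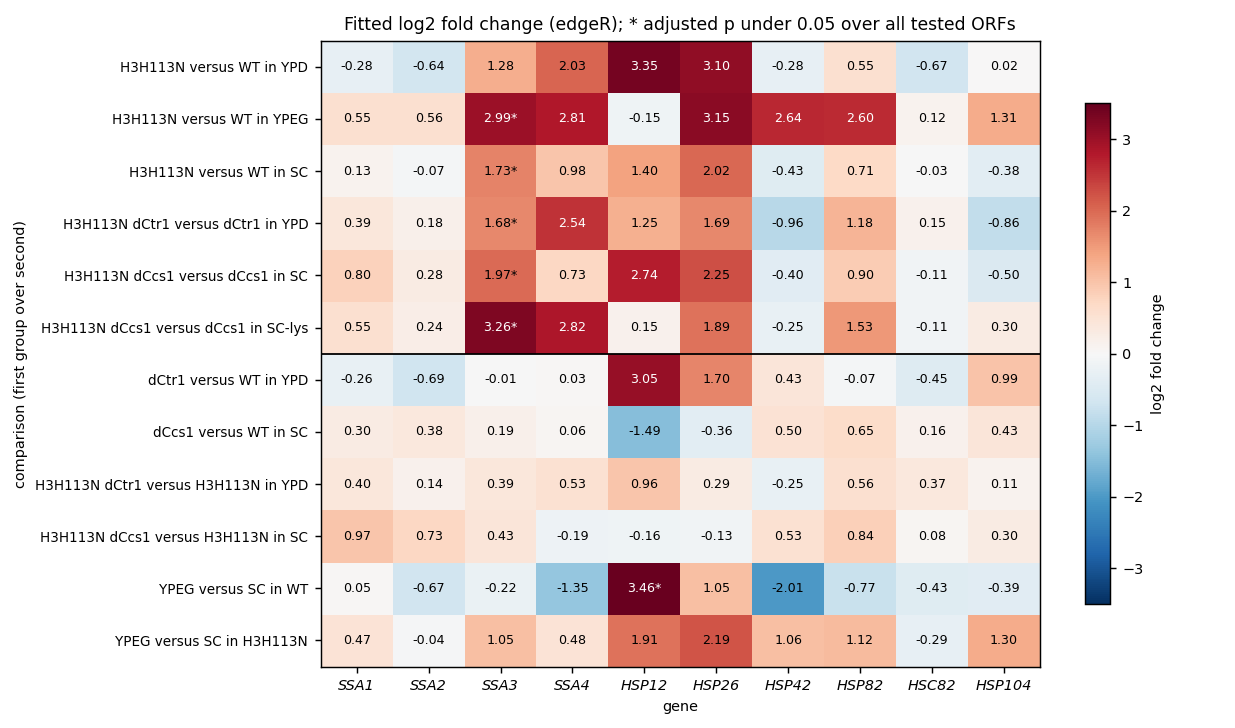
Fitted log2 fold change of the 10 genes in 12 comparisons, first group over second, with an asterisk at an edgeR adjusted p under 0.05. Above the black line are the 6 comparisons of H3H113N with its parent that the choice of genes used, with asterisks on SSA3 in 5; below it are the 6 others, where HSP12 in YPEG against SC in WT cells (3.46) carries the only asterisk.

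The groups without lysine and with added copper were on the KAPA kit, and the copper groups had 1 library each, so these are values without a test. In dCcs1, HSP12 had 1712 RPKM with copper, against 7339 and 3129 RPKM in SC-lys, and SSA3 had 21.6 RPKM with copper, against 35.6 and 38.4 RPKM. In H3H113N-dCcs1, SSA3 had 230 RPKM with copper, against 588 and 284 RPKM in SC-lys. SSA4 had 260 RPKM with copper in H3H113N-dCcs1, against 957 and 633 RPKM, and HSP82 had 1155 RPKM, against 2198 and 1978 RPKM. Each of these single copper libraries lay below both SC-lys libraries of its strain. In dCcs1 the copper library was also below both for SSA2 (1729 RPKM), HSP26 (69.9 RPKM) and HSC82 (954 RPKM). In H3H113N-dCcs1 it was also below both for HSP12, HSP26, HSC82 and HSP104. There SSA1 and HSP42 lay between the SC-lys libraries and SSA2 (3094 RPKM) above both. The remaining members did not share this order in dCcs1. In dCcs1, SSA4 had 114 RPKM with copper, against 85.4 and 96.9 RPKM in SC-lys, HSP42 had 929 RPKM, against 376 and 816 RPKM, and HSP104 had 1134 RPKM, against 471 and 953 RPKM, so that all 3 lay above both SC-lys libraries. HSP82, with 548 RPKM with copper, against 507 and 659 RPKM in SC-lys, and SSA1, with 2157 RPKM, against 1753 and 2661 RPKM, lay between them.

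Genes that work with these chaperones mostly did not pass the threshold. Of 11 cytosolic Hsp70 partners (J-proteins, exchange factors and Hsp110), 0 passed in the 6 H3H113N comparisons and 1 in the 6 others, the J-protein gene HLJ1 in YPEG against SC in H3H113N cells (104 ± 20.1 RPKM, n = 2, against 67.8 ± 5.29 RPKM, n = 3). In that comparison 10.9% of all tested ORFs passed, so 1 of 11 is near that share. Of 12 Hsp90 co-chaperones, 1 passed, TAH1 in dCtr1 in YPD, with 196 ± 54.6 RPKM in H3H113N-dCtr1 and 51.5 ± 2.05 RPKM in dCtr1 (SD, n = 2 each). In that setting 2.18% of all tested ORFs passed. Of 15 other Hsf1-dependent genes, 1 passed in YPEG against SC in WT cells, HSP60, beside 11.5% of all tested ORFs. In H3H113N cells 2 passed, MDJ1 and HSP60, beside 10.9%. Both counts are near those shares. In the H3H113N comparisons 0 passed, and the median log2 difference of the 15 was 0.67 in YPEG and between -0.36 and 0.27 in the other settings. Among 12 regulators, including HSF1, MSN2, MSN4 and GIS1, 0 passed in any comparison. HSF1 averaged 116 ± 24.3 RPKM in H3H113N cells in YPEG and 98.7 ± 20.9 RPKM in WT cells (SD, n = 2 each). In the same order, MSN4 averaged 94.2 ± 0.240 and 50.4 ± 7.65 RPKM, and MSN2 44.6 ± 6.06 and 59.4 ± 29.1 RPKM. In SC-lys, H3H113N-dCcs1 and dCcs1 averaged 98.1 ± 7.7 and 69.1 ± 5.78 RPKM for HSF1 (SD, n = 2 each). For MSN2 they averaged 95.5 ± 1.26 and 42.2 ± 2.94 RPKM, and for MSN4 63.7 ± 9.23 and 80.5 ± 55.0 RPKM. The 8 genes of the CCT chaperonin also gave 0 in any comparison.

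Calls also came from the lists of the ribosome, the mitochondria, the endoplasmic reticulum and general stress. Of 7 ribosome-associated chaperones, which fold proteins as they are made, 4 were lower in H3H113N-dCcs1 than in dCcs1 in SC-lys, beside 5.57% of all tested ORFs, among them EGD2 at 398 ± 51.4 RPKM and 1031 ± 86.4 RPKM (SD, n = 2 each). Their median log2 difference was -1.29, and that of 132 cytosolic ribosomal protein genes was -1.17 with 80 lower. In the other 5 H3H113N settings the ribosomal protein median lay between -0.75 and -0.41 with 0 or 1 gene lower. In YPEG against SC, 42 ribosomal protein genes fell in H3H113N cells, beside 4.79% of all tested ORFs, and 7 of 132 in WT cells, beside 4.72%, which is near that share. Of 10 mitochondrial chaperones, ECM10, which lies on chromosome V and is a paralog of the mitochondrial Hsp70 gene SSC1, was higher in 4 settings. These were YPD, YPEG, SC and dCtr1 in YPD, beside 0.925% to 1.81% of all tested ORFs. In YPEG it had 33.0 ± 5.42 RPKM in H3H113N cells and 11.2 ± 1.73 RPKM in WT cells (SD, n = 2 each). The chromosome V median was 0.44 to 0.68 in the same 4 settings, and its part in the ECM10 calls was not tested. In YPEG against SC, HSP60, the mitochondrial chaperonin gene, rose in WT cells (log2 difference 1.17, edgeR adjusted p = 0.0176) and in H3H113N cells (1.35, edgeR adjusted p = 0.00900), where 4 of the 10 rose, beside 6.13% of all tested ORFs. Of 10 endoplasmic reticulum chaperones, CNE1, on chromosome I, was higher in SC-lys, beside 5.16% of all tested ORFs. Its log2 difference was 0.90, and the median of chromosome I was also 0.90 in that setting. The part of that shift in the CNE1 call was not tested. In YPEG 3 fell in WT cells and 2 in H3H113N cells, beside the 4.72% and 4.79% of all tested ORFs that were lower, with PDI1 at 494 ± 30.0 RPKM in YPEG and 824 ± 163 RPKM in SC in WT cells (edgeR adjusted p = 0.0277). Of 20 general stress genes of Msn2 and Msn4, HSP33 was higher in SC-lys, beside 5.16% of all tested ORFs. In YPEG against SC, DDR2 rose in WT cells, beside 6.75%, and XBP1 in H3H113N cells, beside 6.13%. Each was 1 gene of 20, near that share. In YPD 1 passed, YGP1, beside the 1.05% of all tested ORFs that were higher. It had 209 ± 141 RPKM in H3H113N and 16.6 ± 0.852 RPKM in WT cells (SD, n = 2 each). The median log2 difference of the 20 was 1.39 in YPD and 1.30 in dCtr1 against WT in YPD. Both comparisons share the WT libraries. In the other comparisons the median lay between -0.63 and 0.91.

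The levels of SSA3 over the 14 groups were most like those of CRF1 (Pearson r 0.960), RXT2 (0.954), KTR4 (0.954), FRE2 (0.949) and MIF2 (0.948) on the mean log2(RPKM + 1) scale. Of the members, SSA4 (0.917), HSP26 (0.872) and HSP82 (0.824) were most like it and HSC82 (0.140) least. After the mean of each medium was subtracted, the nearest ORFs were YBR284W (0.991), MVP1 (0.985), TRK2 (0.982), CDC27 (0.981) and ATG8 (0.981), and HSP82 was at 0.945 and SSA4 at 0.916. RXT2, KTR4, YBR284W, CDC27 and ATG8 lie on chromosome II with SSA3. These are descriptions over groups that share kits, media and strains.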

How the data were processed

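The authors deposited raw read counts and RPKM values of 6692 ORFs in 28 poly(A)+ RNA libraries. Per the labels, reads of 50 nt were single-end and strand was not used. The submitters' processing notes name TopHat2 2.0.9 and the builds R64 and sacCer3, and the counting tool is not given in the sources used here. Recomputed from counts, exon length and library total, RPKM matched the deposited values (largest relative difference 3.82e-09). The deposited table gives ORF starts, of which 5375 of 5377 compared equalled R64, and coordinates and sequences here are from RefSeq's R64 genome.

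The deposited counts were tested with edgeR 4.0.16 in R 4.3.3 (TMM scaling, glmQLFit and glmQLFTest), with 1 mean per group over the 26 libraries of 12 replicated groups. The 6592 ORFs with a mean of at least 1 RPKM were kept, and Benjamini-Hochberg adjustment ran over all of them within each comparison, with a threshold of 0.05. An SE is the log2 fold change over the square root of the F statistic. Alternatives were library totals, median-ratio scaling, DESeq2 1.42.0, limma 3.58.1 on log2(RPKM + 1) and log2(RPKM + 0.1), no filter, a mean of at least 5 RPKM, only the groups compared, each chromosome centred (its median deviation removed from each library), a replicate block within each medium, and leaving out each library. Scripts were tested on simulated data. The ORFs were aligned with Biopython 1.88.

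The members and gene lists were chosen with earlier results of these data known. All 10 members are named, and each list names at most 3 called genes per comparison with the largest changes, of which the text prints some. For likeness, the 5 ORFs with the highest correlation are named.

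Replicate numbers pair H3H113N with WT in SC, since same-numbered libraries deviated together (Pearson correlations over ORFs of 0.525, 0.372 and 0.727). With the replicate block, 2 members, SSA3 and HSP26, passed the threshold in that comparison, against 1 without it. The block in SC also spans the dCcs1 libraries, and dCcs1 replicate 2 correlated with WT replicate 2 at -0.415, so the blocked count does not rest on the H3H113N and WT pairs alone.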

Additional observations from a re-analysis of the deposited data

How the results depend on the processing

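No fold change of a member changed direction past the threshold under any alternative, and median-ratio scaling, no filter and a mean of at least 5 RPKM moved no call. The number of members called moved as follows. In YPD (0 members) DESeq2 and the replicate block each gave 2. In YPEG (1) DESeq2 and the block each gave 3, and only the groups compared gave 5. In SC (1) limma with either pseudocount and the block gave 2, and the groups compared alone and centred chromosomes gave 0. In dCtr1 in YPD (1) DESeq2 and the block gave 2, and the groups alone and centring 0. In dCcs1 in SC (1) the groups alone and centring gave 0. In SC-lys (1) library totals, DESeq2, limma with either pseudocount and the block gave 2, and the groups alone 0. For YPEG against SC in WT cells (1) the groups alone gave 0. In H3H113N cells (0) DESeq2, the groups alone and the block gave 2 and centring 1. The cause was not tested.

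Leaving out 1 library gave 0 to 1 members in YPEG, 0 to 3 in SC, 0 in dCtr1 in YPD, 0 to 1 in dCcs1 in SC, 1 in SC-lys and 0 to 2 for YPEG against SC in WT cells. In SC, WT replicate 3 was the library without which 3 members, SSA3, HSP26 and SSA4, were called, and without it YPEG against SC in WT cells gave 2. A group left with 1 library was assumed to vary like the others.

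Outside H3H113N against WT in SC the labels give a number and nothing else that pairs replicates. The replicate block called no member in dCtr1 against WT in YPD, where same-numbered libraries correlated at -0.432, and the crossed replicate block, added after the data were seen, called 0. RPKM scaled by TMM factors moved 23 of 120 group means by over 1 SD. The lowest member count in any library was 8 reads, for HSP12 in WT in YPD, so its fold changes there are imprecise.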
